A study of Mus musculus with 8 samples.

Results

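The basement membrane genes described here are 10 genes of the laminin, nidogen and heparan sulfate proteoglycan families: Lama2, Lama4, Lama5, Lamb1, Lamb2, Lamc1, Nid1, Nid2, Hspg2 and Agrn. They were chosen by name, and all 10 have a row among the 12589 gene rows that the authors deposited. The cells were cultures of mSSC-YFP, a stromal line derived from mouse spleen that expresses yellow fluorescent protein, so that every library comes from 1 line. In the labels, 4 samples received BMS493, an inhibitor of retinoic acid (RA) signaling, and 4 samples received its vehicle DMSO, each for 48 h in serum-containing DMEM. RNA-seq of these cultures was carried out to ask what RA-signaling inhibition does to stromal expression. The only expression column of the deposited table that is not the outcome of the authors' own comparison is a mean over all samples, BMS493 and DMSO together. Values of single cultures and of each treatment were therefore not analysed here, and the effect of BMS493 on these genes was not tested here. Every level below is a pooled value with no spread. The paper reports that BMS493 significantly reduced the expression of Lama5 and Nidogen2 (Nid2) in these stromal cells. The pooled levels of Lama5 and Nid2 thus mix cultures that, by the paper, differ. The paper gives an average sequencing depth per sample, but the depth of each single library is unknown.

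Basement membranes are thin sheets of matrix that underlie epithelium and endothelium and wrap muscle, fat and nerve. Laminins are heterotrimers of 1 alpha, 1 beta and 1 gamma chain, and they polymerize on the cell surface into a network. Nidogens bind the laminin gamma 1 chain and type IV collagen, and perlecan and agrin, which carry heparan sulfate, connect the network further and hold growth factors. In lymphoid organs, fibroblastic stroma is known to deposit laminin and other basement membrane proteins on reticular fibers.

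Levels are given on 2 scales. The first is the authors' mean log2 normalized expression over all samples. Since a longer transcript yields more fragments, ratios between genes were taken on the second scale, the level per kb, for which log2 of the length of the gene's longest annotated transcript in kb was subtracted. The annotation (GENCODE M21, GRCm38, also named mm10) gave a length for 12387 of the rows, and their median level per kb was 9.73 on the linear scale.

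The members ranged widely, from 215 per kb for Nid1 to 1.43 per kb for Lama2, a 151-fold range. Of the 10 genes, 8 lay above the median of all rows per kb and 5 were in the top 10% of rows. Lama4 and Lama2 lay below the median. Levels per kb of coding sequence exist only for rows with a coding sequence, so there the rows compared differ too. Against the median of those rows, Agrn and Nid2 lay below as well, which left 6 members above. The standing in the top 10% also depended on the length used. With the coding length Hspg2, Lamb1 and Lamb2 left it, being above 89.5%, 79.2% and 75.7% of rows with a coding sequence. With the exon union Lamb1 left it, being above 89.1%. Nid1, Hspg2 and Lamc1 together made up 71.1% of the members' summed level per kb. On the authors' scale the 10 members together took 0.514% of the summed expression of all rows. Per kb they took 0.173% of the sum over rows with a length.

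**Figure D1:**
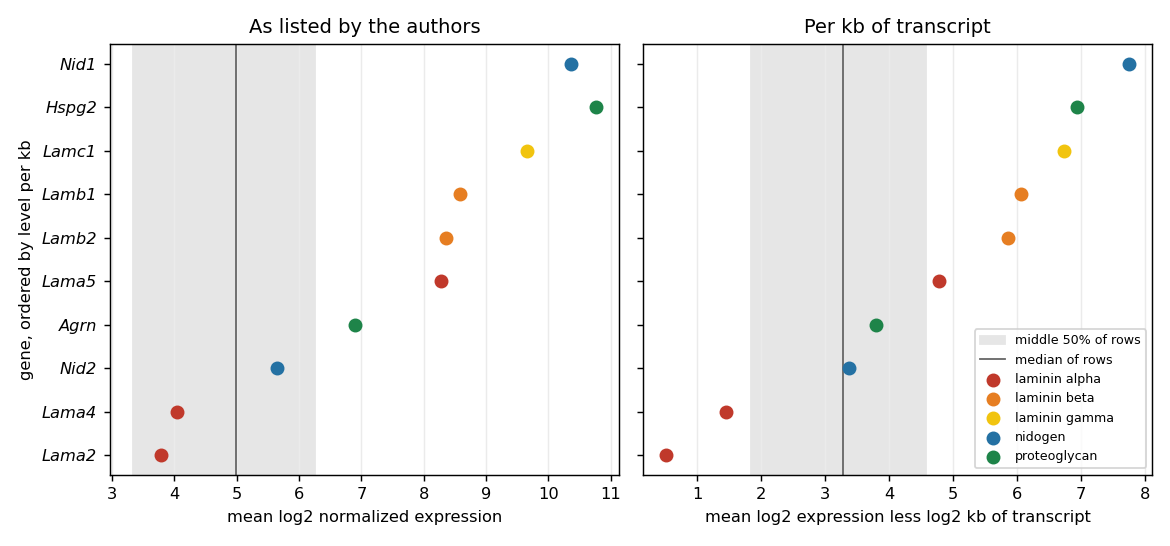
Levels of the 10 members (points, colored by family) as the mean log2 normalized expression listed by the authors (left) and after subtraction of log2 kb of the longest transcript (right). The gray band holds the middle 50% of rows and the line is their median; Nid1, Hspg2 and Lamc1 stand highest in both panels, and Lama4 and Lama2 are the only members left of the median.

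Promoter sequences were at hand for 7 of the 10 members and are credited to RefSeq on GRCm38.p6; there was no entry for Lama4, Lamc1 and Nid2. Up to 250 bases before the RefSeq start, without any that GENCODE places in an exon of the gene, are shown for both members with the highest level per kb (Nid1 and Hspg2), for the 2 laminin beta chains, which had similar levels, and for Lama2, which had the lowest. They lie at chr13:13437352-13437550 (plus strand) for Nid1, chr4:137468553-137468768 (plus) for Hspg2, chr12:31265043-31265233 (plus) for Lamb1, chr9:108479612-108479735 (plus) for Lamb2 and chr10:27616943-27617192 (minus) for Lama2. The window of Lama2 lies inside the gene as GENCODE draws it, since a transcript there starts further upstream. Each is written 5′ to 3′ on the strand of the gene, and capitals mark GGGCGG, the GC box, on either strand.
Nid1: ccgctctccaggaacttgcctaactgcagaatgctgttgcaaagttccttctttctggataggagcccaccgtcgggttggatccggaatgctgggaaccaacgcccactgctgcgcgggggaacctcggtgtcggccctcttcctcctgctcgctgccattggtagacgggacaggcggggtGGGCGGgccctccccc
Hspg2: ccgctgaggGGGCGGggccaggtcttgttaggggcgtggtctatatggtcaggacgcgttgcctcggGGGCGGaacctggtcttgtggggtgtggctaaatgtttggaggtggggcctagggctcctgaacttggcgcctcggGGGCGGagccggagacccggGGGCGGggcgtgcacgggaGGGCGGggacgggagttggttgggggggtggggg
Lamb1: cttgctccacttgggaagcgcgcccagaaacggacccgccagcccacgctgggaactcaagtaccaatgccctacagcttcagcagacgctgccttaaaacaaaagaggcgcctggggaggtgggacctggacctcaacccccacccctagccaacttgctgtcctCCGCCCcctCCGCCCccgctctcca
Lamb2: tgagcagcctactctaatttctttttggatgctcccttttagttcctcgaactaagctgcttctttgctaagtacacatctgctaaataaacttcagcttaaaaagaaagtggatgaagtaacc
Lama2: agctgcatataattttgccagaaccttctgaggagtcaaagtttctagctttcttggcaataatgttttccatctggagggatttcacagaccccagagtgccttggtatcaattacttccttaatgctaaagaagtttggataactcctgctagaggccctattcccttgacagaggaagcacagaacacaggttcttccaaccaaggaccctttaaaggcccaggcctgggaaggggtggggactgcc

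The promoters differed in base composition. Over the full RefSeq window of 300 bases, 250 before the start and 50 after it, the share of G and C was 64.7% for Nid1, 70.3% for Hspg2, 63.7% for Lamb1 and 72.7% for Lama5, against a median of 52.7% over all 32851 promoters of the same length. Lamb2 had 44.0% and Lama2 50.3%, but these windows do not lie wholly before the start that GENCODE gives. For Lamb2 the last 126 bases before the RefSeq start, left out of the sequence above because a GENCODE exon begins there, are counted here. Such bases number 51 for Nid1, 34 for Hspg2 and 59 for Lamb1. The Lama2 window lies inside the gene. The count of CpG dinucleotides was 20 for Nid1, 27 for Hspg2, 18 for Lamb1 and 24 for Lama5, while Lamb2 had 4 and Lama2 1, where the median promoter had 7. Agrn has 2 starts in the table, with 83.3% and 61.3% G and C. The window of the latter lies inside the gene, and bases after its start were not found in a GENCODE transcript of Agrn. It is counted among the member promoters. The GC box was present in 7 of the 8 member promoters, Lamb2 being the exception, and in 35.7% of all promoters. Counted by gene, with the 2 starts of Agrn as 1, it was in 6 of 7. The box of Lama2 does not lie within the 250 bases before the start, so its sequence above has no capitals. TATAAA, searched on both strands, was in 0 of the 8 and in 13.6% of all. Lamb1 and Lamb2 had similar levels and windows of unlike composition. Agrn, with the window richest in G and C of those at hand, was number 7 in level. Whether composition bears on level was not tested.

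Because the cultures were treated with an inhibitor of RA receptors, the same windows were searched on both strands for hexamers that RA receptors bind, namely AGGTCA, the variant AGTTCA, the variant GGGTCA and the variant GGTTCA. A single hexamer occurs in 43.7% of all promoters. It was found in 1 of the 8 member promoters, that of Hspg2. Direct repeats of these hexamers spaced by 1, 2 or 5 bases, the usual arrangement of an RA response element, were in 0 of the 8, and in 0.222%, 0.268% and 0.0974% of all promoters. The search covers only these letters in this window.

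Among the laminin chains of the 10 genes, the gamma chain Lamc1 was the most abundant. Lamc1, the gamma chain of most laminin trimers (ENSMUSG00000026478.14, chromosome 1, 153218922 to 153332786, minus strand), had a mean log2 expression of 9.66 and 106 per kb. The beta chains Lamb1 (chromosome 12, 31265234 to 31329644) and Lamb2 (chromosome 9, 108479736 to 108490530) had mean log2 expression of 8.59 and 8.35. Per kb they stood at 66.6 and 58.0, a ratio of 1.15. Which of them is higher depended on the length used, since Lamb1 has 9917 bases in the union of its exons but 5784 in its longest transcript, and with the union the ratio was 0.723. No spread is at hand to say whether the beta chains differ.

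The alpha chains, which carry the globular domains that bind cell receptors, were the least abundant laminin chains among the members. Lama5 (chromosome 2, 180176373 to 180225859), a long alpha chain of wide occurrence, had a mean log2 expression of 8.28 and 27.4 per kb, above 78.2% of rows. With the coding length Lama5 was above 55.2% of rows with a coding sequence. Lama4 (chromosome 10, 38965515 to 39110188), a short alpha chain typical of vessels, muscle and fat, had 4.04 and 2.72 per kb. Lama2 (chromosome 10, 26980036 to 27619758), the alpha chain of muscle and nerve laminins, had 3.78 and 1.43 per kb, above 12.1% of rows. Lama5 accounted for 86.8% of the alpha chain level among these genes, 10.0 times Lama4 and 19.2 times Lama2 per kb. With the exon union in place of the longest transcript these ratios were 20.1 and 32.6, because Lama4 and Lama2 have many bases outside their longest transcripts.

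Summed per kb, the alpha chains came to 31.5, the beta chains to 125 and the gamma chain to 106. The alpha sum was thus 0.298 of the gamma level and the beta sum 1.18 of it. With the exon union the ratios to gamma were 0.303 and 0.949. With the coding length in place of the transcript length, the ratios to gamma were 0.194 for alpha and 0.780 for beta. The alpha chains thus had the lowest sum by all 3 lengths, while the order of beta and gamma turned. Each of the 3 lengths takes reads to be spread evenly along a transcript, which was not tested. These are levels of RNA, and how many trimers the cells assembled was not measured.

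**Figure D2:**
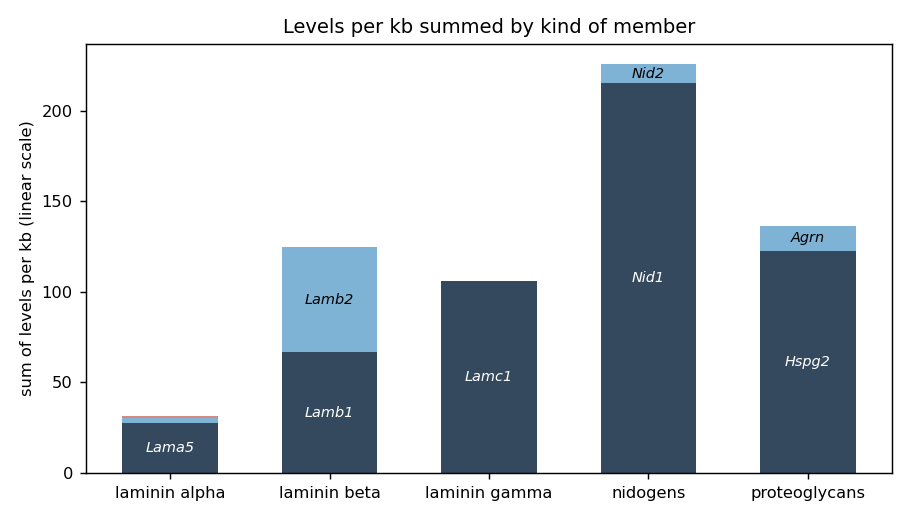
Levels per kb (linear scale, pooled over all samples) stacked by kind of member, 1 color segment per gene. The alpha chains sum to 31.5, against 125 for the beta chains and 106 for Lamc1, and Nid1 and Hspg2 fill most of their bars.

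Of 4 further laminin chains, Lama3 and Lamc3 have no row, and the other 2 lay below the median of all rows per kb. Lamb3, a chain of an epithelial laminin, had 1.53 per kb. Lama1, the chain of the earliest embryonic laminin, had 0.0994 per kb, the level of a gene near the lower end of the table. Lamb2 was 37.9 times Lamb3 and Lama5 was 275 times Lama1 per kb. The latter ratio rests on a mean log2 expression of -0.0786 for Lama1. An offset added to counts, which is not known here, would bear on so low a value.

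The nidogens were unequal. Nid1 (ENSMUSG00000005397.8, chromosome 13, 13437551 to 13512269, plus strand) had a mean log2 expression of 10.36, and with 215 per kb it was above 98.3% of rows. Nid2 (ENSMUSG00000021806.4, chromosome 14, 19751265 to 19811787, plus strand) had 5.65 and 10.3 per kb, above 51.6% of rows and so near the median. Both proteins bridge laminin and type IV collagen. Nid1 was 20.9 times Nid2 per kb, 19.4 times with the exon union and 29.4 times with the coding length, and made up 95.4% of their sum. It was also 2.03 times Lamc1, the chain to which nidogens bind. Nid2 shares 437 exonic bases, 8.45% of its exon union, with Rtraf on the opposite strand, which has a mean log2 expression of 6.79. The libraries were stranded, but whether counting used the strand is not given in the sources used here, so reads of Rtraf among those of Nid2 cannot be told apart.

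The proteoglycans were unequal as well. Hspg2 (ENSMUSG00000028763.17, chromosome 4, 137468769 to 137570630), which encodes perlecan, had a mean log2 expression of 10.77. It has 97 exons in its longest transcript of 14187 bases, so per kb, at 123, it came second to Nid1, with a ratio of 0.570. Agrn (ENSMUSG00000041936.18, chromosome 4, 156165290 to 156197488), which encodes agrin, the organizer of acetylcholine receptors at the nerve-muscle synapse, had 6.89 and 13.8 per kb, above 60.3% of rows. Hspg2 was 8.89 times Agrn per kb. Hspg2 was 1.16 times Lamc1, and 0.791 times with the coding length, so their order was not settled by these data.

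The members share long transcripts. Their longest transcripts run from 4876 to 14187 bases, with a median of 6857, where the median of all rows is 3333. The shortest, that of Nid2, is longer than 76.0% of rows, and 5 of the 10 are at or above percentile 90. The median count of exons was 34.5, against 8 over all rows. The genes lie on 8 chromosomes, with Hspg2 and Agrn on chromosome 4 and Lama2 and Lama4 on chromosome 10. Without the scaling by length, Hspg2 and Nid1 exchange places and the other 8 members keep their order. Beside Nid2, exons of Nid1 and Lama2 overlap those of genes on the opposite strand, over 2.06% and 3.86% of their exon bases.

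**Figure D3:**
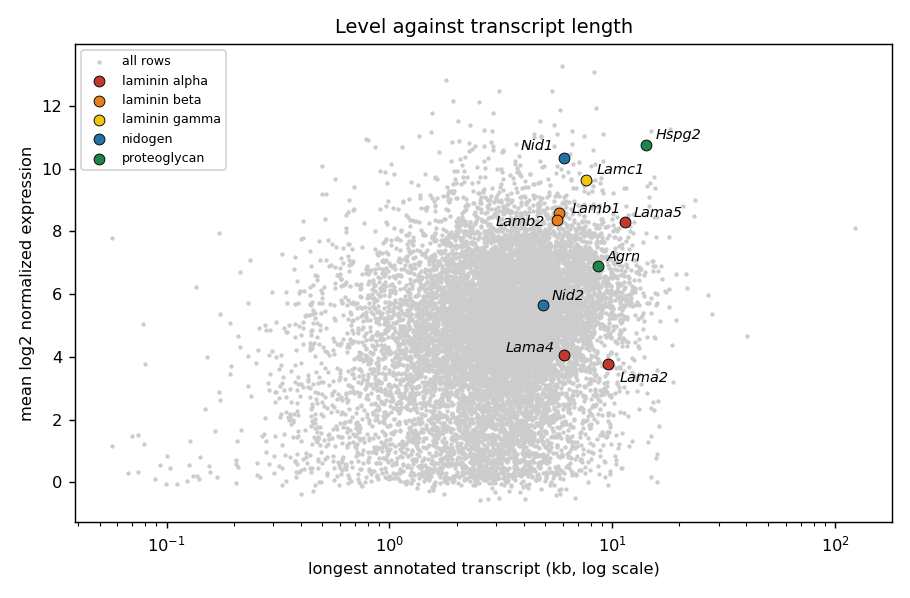
Mean log2 normalized expression (pooled over all samples) against the length of the longest annotated transcript in kb on a log axis, for rows with a length (gray) and the 10 members (colored by family). The members lie at the long side of the cloud, from 4876 bases for Nid2 to 14187 for Hspg2, and spread from 3.78 to 10.77 in level.

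The partners of these proteins were read from lists of other basement membrane genes. In the type IV collagen network, 5 of 7 genes have a row and all 5 lay above the median per kb. Col4a1 and Col4a2, the chains of the common type IV collagen trimer, had 360 and 222 per kb, beside 215 for Nid1, the highest member. With the coding length the order of Col4a2 and Nid1 turned, with log2 levels of 8.12 and 8.46. Col4a5 and Col4a6 had 64.1 and 19.3 per kb, and Pxdn, the peroxidase that crosslinks type IV collagen, had 57.4. Col4a3 and Col4a4 have no row. Col4a5 was the median of this list, whereas the median of the members was 5.32 on the log2 scale and that of all rows 3.28.

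Other basement membrane components spread more widely. Of 15 genes 13 have a row, and 5 of these lay above the median per kb. Sparc, a collagen-binding glycoprotein, was highest with 1183 per kb, and Fbln2, a fibulin that binds laminin and nidogen, had 432. Col18a1 and Col15a1, collagens with heparan or chondroitin sulfate chains, had 3.29 and 0.321, and Fras1 was lowest with 0.118. The median of the list was 1.72 on the log2 scale.

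Of 14 receptors for laminin, perlecan and agrin, all have a row and 8 lay above the median per kb. Itgb1, the beta subunit of most laminin-binding integrins, had 357 per kb. Dystroglycan, encoded by Dag1, had 67.3, and the laminin-binding alpha subunits Itga3, Itga6 and Itga7 had 49.8, 11.9 and 3.70. The syndecan Sdc4 had 105. Itgb4, the partner of Itga6 in hemidesmosomes, had 1.16, Lrp4, the agrin receptor of muscle, had 0.442, and Itga2 was lowest with 0.184.

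**Figure D4:**
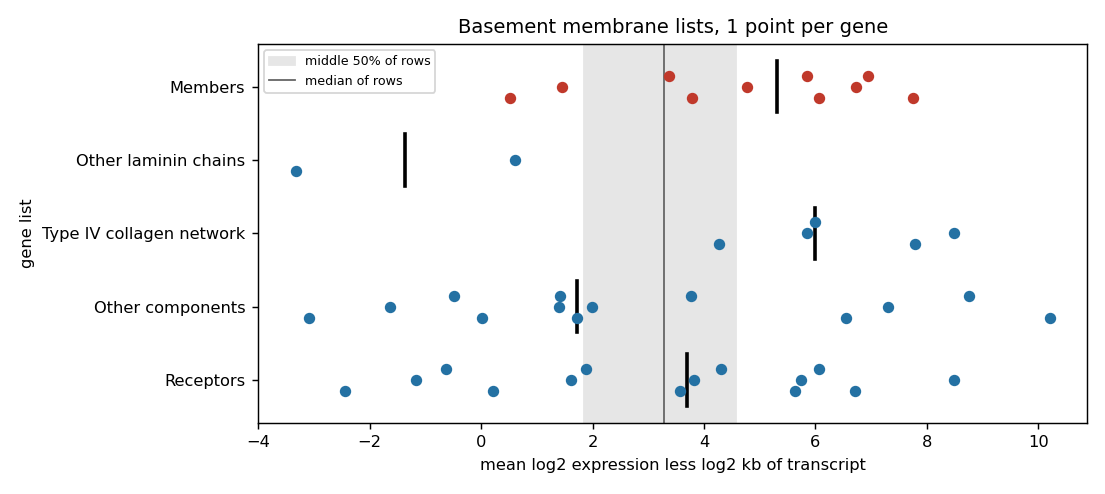
Levels per kb (log2 scale, pooled over all samples) of the 10 members and of 4 lists of other basement membrane genes, 1 point per reported gene with a row, the black bar being the median of each list. The gray band holds the middle 50% of all rows; the median is 5.32 for the members and higher for the type IV collagen network, while the other laminin chains and other components lie lower.

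The labelled cell type was checked against markers. All 9 stromal fibroblast markers have a row, and 8 of them lay above the median, with Col1a1 highest at 1684 per kb. Pdgfra was lowest with 5.54 per kb, above 34.6% of rows and below the median. None of 4 B lymphocyte and leukocyte markers (Ptprc, Cd79a, Cd79b and Ms4a1) has a row. Of 5 endothelial markers, Kdr and Pecam1 have rows at 1.20 and 0.402 per kb. Of 4 macrophage markers, Cd68 has one at 2.09. Of 4 epithelial markers, Cdh1 has a row at 58.8 per kb, level with Lamb2, and Epcam, Krt5 and Cldn4 have none. In bulk RNA, a smaller share of cells that express a gene and less RNA per cell cannot be told apart. A gene with no row was not analysed here.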

How the data were processed

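RNA-seq of stromal cultures (4 with BMS493, 4 with DMSO) was read from 1 table. According to the paper's methods and the submitters' processing notes, the authors checked reads with FastQC, mapped them with STAR 2.3.0e to mm10, used Rsubread to count reads with a unique position per Ensembl gene, normalized the counts by trimmed means of M-values and compared treatments with limma. The column used holds the authors' deposited mean log2 normalized expression over all samples, with decimal commas, and its back-transformed values sum to 989369, as values scaled to counts per total would. The 4 other columns hold the authors' own comparison (log2 fold change, t, p and adjusted p) and were not used, so the planned test of BMS493 against DMSO could not be run. An offset added to counts before the logarithm, which would bear most on weakly expressed genes, is not given in the sources used here.

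GENCODE M21 (GRCm38) lengths were assigned by symbol for 11783 rows and through an older RefSeq symbol for 604, or 98.4% of rows. Levels per kb, sums and percentiles (the share of rows with a lower value) were computed in Python 3.11.15 with numpy 2.4.6 and pandas 2.3.3. Only the subtraction of log2 length was tried on simulated reads, drawn in proportion to level and length. The other steps were not tested in this way. No statistical test was run. All members were named, and of each partner list the genes with the highest and lowest level, the other partners named having been chosen after their values were seen. From the lists as first written, 2 genes were left out of every count, and are not reported here. The members and lists were chosen with earlier results of these data known. Alternatives were the exon union, the coding length, no scaling by length, and a minimum mean log2 expression of 1.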

Additional observations from a re-analysis of the deposited data

How the results depend on the processing

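No paired analysis was possible because the column used is a mean over all samples, and for the same reason leaving out single cultures, other pseudocounts and other count models were not run. The coding length from RefSeq proteins was not run, and the coding length of the annotation, chosen after seeing the data, took its place. As there is no spread, a value was taken as moved when it changed by over 1.5 times. The count of members above the median per kb was 8 with the longest transcript and 8 with the exon union or no scaling. It was 7 against the median of rows whose mean log2 expression reached 1. With the coding length it was 6, against the median of rows with a coding sequence. The median log2 level of the members was 5.32 per kb and 8.32 with no scaling by length. The gamma chain level rose from 106 to 167 per kb with the coding length. With the exon union 3 of the 10 single members moved, with the coding length 2, and with no scaling all 10, which follows from dropping the division by kb. In each of these settings 8 of 10 members kept their place in the order.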

Other observations

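Cdh1, which encodes the epithelial adhesion protein E-cadherin, had a mean log2 expression of 8.03 in this spleen stromal line and 58.8 per kb, above 90.7% of rows, and was chosen for mention after its value was seen. Tinagl1 and Npnt, which encode basement membrane proteins, had 157 and 93.5 per kb, on a level with Hspg2 and Lamc1. Their order depended on the length used. With the coding length the log2 levels of Tinagl1 and Npnt were 7.87 and 7.89, above 7.05 for Hspg2 and 7.39 for Lamc1. With the exon union they were 6.23 and 6.43, below 6.93 and 6.61. Hmcn1, the gene of the very large matrix protein hemicentin 1, had a mean log2 expression of 5.58 but 2.68 per kb.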
